A study of Mus musculus with 28 samples.

Results

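The smooth muscle contractile genes described here were *Acta2*, *Tagln*, *Cnn1*, *Smtn*, *Lmod1*, *Synpo2*, *Myh11*, *Myl9*, *Des*, and *Myocd*. They were chosen by name, as genes whose products build or control the contractile apparatus of smooth muscle, and they were 10 of 56980 genes in the bulk table. All 10 passed the filter on low counts (a mean of 100 or more normalized counts across the 25 libraries), which left 12673 genes to test. The study made arteriovenous fistulas (AVFs) between the jugular vein and the carotid artery of C57BL/6 mice of both sexes. Every mouse had first undergone a 5/6 nephrectomy, so the contralateral jugular veins that served as controls also came from mice with reduced renal mass. Bulk RNA sequencing covered single vessels: 7 contralateral veins, 8 early AVFs (day 3), 5 mid AVFs (day 10), and 5 late AVFs (day 21). These days are those of the labels. The study's methods give a mean and a spread of days for each AVF group, with the widest spread in the early one. Neither the age of the mice nor the day on which contralateral veins were taken is stated in the labels and methods that were used. Males were 2 of 7 contralateral, 5 of 8 early, 2 of 5 mid, and 2 of 5 late libraries. Single-cell RNA sequencing covered 1 contralateral, 1 early, and 1 late library, each a pool of 10 vessels. By the study's methods, the early and late single-cell vessels were taken at later mean days than the bulk vessels of the same name.

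In smooth muscle, the motor protein myosin II pulls on thin filaments of α-actin after its regulatory light chain is phosphorylated. Calponin, transgelin, smoothelin, leiomodin, and synaptopodin 2 bind or organize these filaments, and desmin intermediate filaments link the contractile units to each other and to the cell surface. Myocardin, a coactivator of serum response factor (SRF), drives many of these genes through CArG boxes in their promoters. In veins, these transcripts mark the medial smooth muscle layer, and *Acta2* and *Tagln* are also known from activated fibroblasts (myofibroblasts).

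Promoter sequence (RefSeq, build GRCm38.p6) was given for 7 of the 10 genes, and *Tagln*, *Myh11*, and *Myocd* were not in the table. The 250 bases before each RefSeq start site were scanned for the CArG box, read as CC, 6 bases that are each A or T, and GG, a pattern that reads alike on both strands. An exact box stood in the window of *Myl9* alone among the 7, and boxes with up to 1 mismatch among the 6 middle bases stood in those of *Acta2* and *Myl9*. Of all 32851 promoters of the same length, 1.47% held an exact box and 8.59% held one with up to 1 mismatch. The *Cnn1*, *Smtn*, *Lmod1*, *Des*, and *Synpo2* windows held neither, which says only that these letters are not in these 250 bases. Because *Acta2* and *Myl9* were the most abundant genes of the group per length of transcript, their boxes are shown within 30-base windows, 5′ to 3′ on the strand of the gene, with the box in capitals. The *Acta2* windows lie at chr19:34255438-34255467 and chr19:34255388-34255417 (minus strand), with the boxes at −84 to −75 and −34 to −25 from the RefSeq start site. The *Myl9* windows lie at chr2:156775293-156775322 and chr2:156775355-156775384 (plus strand), with the boxes at −161 to −152 (exact) and −99 to −90.
*Acta2*, distal: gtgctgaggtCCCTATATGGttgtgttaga
*Acta2*, proximal: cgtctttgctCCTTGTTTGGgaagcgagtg
*Myl9*, distal: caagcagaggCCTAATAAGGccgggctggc
*Myl9*, proximal: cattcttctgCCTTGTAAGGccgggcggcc
A match is a description of these letters and was not tested as a site of binding. The gene positions given below come from another annotation, which places some starts elsewhere. By those positions, both *Acta2* windows and the scanned *Smtn* bases lie within the gene. The scanned bases of *Cnn1*, *Lmod1*, and *Myl9* reach past the starts given there.

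Total counts ranged from 20254200 to 67457500 per bulk library, and the lowest counts of the group belonged to *Myocd*. Levels are given as CPM (counts divided by the total of the library and scaled to a common total), and between genes only per kilobase of merged exons. On that per-length scale in contralateral veins, *Myl9* (4082 CPM per kb) and *Acta2* (3953 CPM per kb) stood highest. They were followed by *Cnn1* (524), *Myh11* (310.4), *Des* (81.6), *Tagln* (56.1), *Smtn* (34.1), *Synpo2* (29.4), *Lmod1* (25.7), and *Myocd* (1.44 CPM per kb). The low place of *Tagln* has to be read with its annotation, since an antisense gene, Gm48529, covers 62.4% of its exonic bases (1241) and *Pcsk7* a further 5.43% (108), both on the opposite strand. The sources do not say how the counting treated overlapping genes and strand, so reads of these genes cannot be told apart, and the bulk level of *Tagln* is uncertain. Gm48529 itself was counted at 0 to 9.62 CPM in contralateral veins. For *Smtn*, 16.3% of exonic bases were shared with Gm11946, and for *Des*, 5.86% were shared with Gm15179, and neither partner reached 2 CPM in any library.

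Of the 10 genes, 8 fell in early AVFs against contralateral veins, 7 of them with every early library below every contralateral library. A fall here means an adjusted *p* under 0.01 over all genes tested and at least a 2-fold change. Among all genes tested, 6.45% fell by this rule, and 2.34% had every early library below every contralateral one. In mid AVFs 7 of the 10 fell (3.31% of all genes), as did 7 in late AVFs (2.85%), and each of these also lay wholly below the contralateral range (4.69% and 4.25% of all genes). The median log2 fold change of the 10 genes was −2.62, −2.54, and −2.04 at the early, mid, and late times, beside −0.01, −0.10, and −0.09 over all genes tested. These comparisons share their 7 contralateral libraries. *Des* and *Myocd* passed the test in none of them, and *Smtn* only in the early one. In bulk tissue, fewer smooth muscle cells and less RNA of these genes per cell cannot be told apart.

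**Figure D1:**
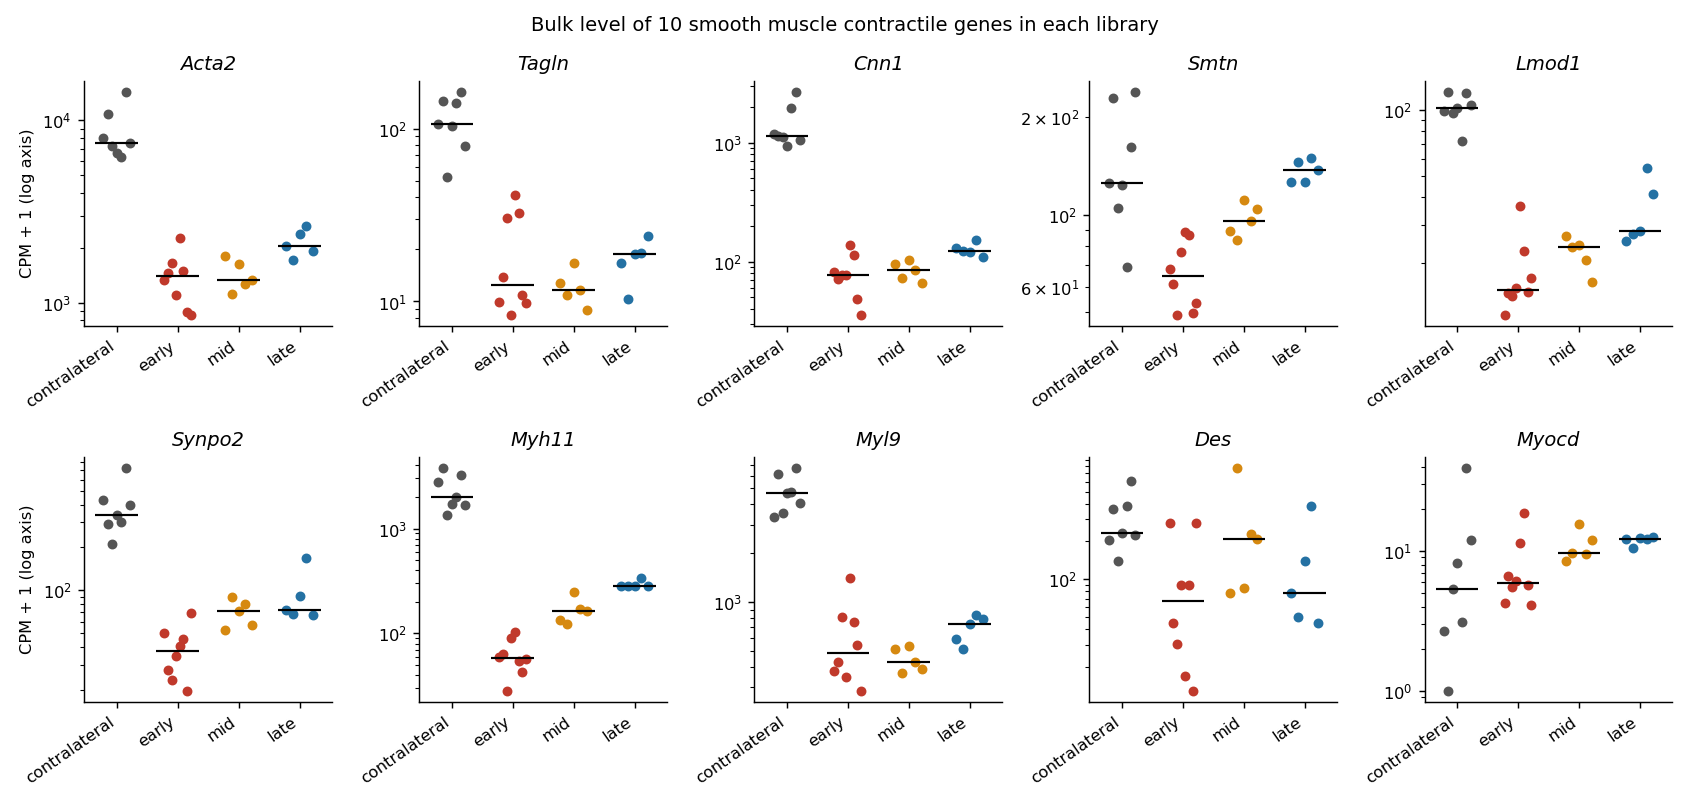
Bulk level of each of the 10 genes in each library (y axis, CPM plus 1, log axis) by group (x axis). Points are single libraries and bars are group medians. In *Myh11* the 8 early libraries (27.4 to 102 CPM) and the 5 late libraries (279.9 to 338 CPM) all lie below the 7 contralateral ones (1347 to 3782 CPM), while in *Myocd* the groups overlap.

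Among the genes of the thin filament, *Acta2* (chr19:34241090-34255590, minus strand, GRCm38, as are the positions of the other genes, taken from the reference annotation) encodes smooth muscle α-actin, the filament itself. Its level ranged from 6263 to 14276 CPM in contralateral veins (median 7512) and from 854 to 2260 CPM in early AVFs (median 1393). Mid AVFs held 1121, 1266, 1329, 1620.1, and 1801 CPM, and late AVFs 1709.8, 1927, 2039.5, 2379.9, and 2635 CPM. No AVF library at any time reached the lowest contralateral vein. The log2 fold change against contralateral veins was −2.66 (SE 0.22, adjusted *p* = 2.44e-09) early, −2.60 (SE 0.27, adjusted *p* = 2.08e-07) mid, and −2.02 (SE 0.26, adjusted *p* = 6.63e-06) late. Between late and early AVFs the difference was 0.63 (SE 0.23, adjusted *p* = 0.115), with overlapping ranges.

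*Tagln* (chr9:45929619-45936058, minus strand) encodes transgelin (SM22α), an actin-binding protein. It was counted at 51.3 to 161 CPM in contralateral veins (median 106) and at 7.34 to 40.3 CPM in early AVFs (median 11.4). The mid libraries held 7.88, 9.88, 10.6, 11.7, and 15.7 CPM, and the late ones 9.39, 15.6, 17.8, 18.0, and 23.1 CPM. The contralateral range thus lay above all 18 AVF libraries, and early AVFs 3, 5, and 6 stood above every mid and late library. Its log2 fold change was −2.58 (SE 0.39, adjusted *p* = 1.96e-05) early, −3.32 (SE 0.49, adjusted *p* = 3.36e-05) mid, and −2.73 (SE 0.47, adjusted *p* = 0.000309) late.

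*Cnn1* (chr9:22099216-22109630, plus strand), the calponin of smooth muscle and an inhibitor of the actomyosin ATPase, ranged from 934 to 2650.0 CPM in contralateral veins (median 1145) and from 34.5 to 136 CPM in early AVFs (median 76.0). It held 65.2, 71.7, 83.7, 95.3, and 102 CPM in mid AVFs and 109, 119, 122, 128, and 149 CPM in late AVFs. Late libraries all lay above the mid libraries, and both groups overlapped the early one. The log2 fold change of *Cnn1* was −4.18 early (SE 0.28, adjusted *p* = 5.92e-11), −4.10 mid (SE 0.34, adjusted *p* = 9.8e-09), and −3.52 late (SE 0.33, adjusted *p* = 1.01e-07), the largest late change of the 10 genes.

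*Smtn* (chr11:3517523-3540612, minus strand), for smoothelin, an actin-associated protein of contractile smooth muscle, moved least among the 8 genes that fell. Contralateral veins held 67.9 to 238 CPM (median 124) and early AVFs 48.0 to 87.3 CPM (median 63.5). In mid AVFs it was at 82.6, 88.1, 94.8, 103, and 110.4 CPM, and in late AVFs at 125, 126, 136, 144, and 149 CPM. Contralateral vein 35, the lowest of its group, lay among the early libraries, while all late libraries stood above all early and all mid ones. The fitted change was −1.19 (SE 0.23, adjusted *p* = 0.000395) early, −0.64 (SE 0.26, adjusted *p* = 0.113) mid, and −0.14 (SE 0.26, adjusted *p* = 0.800) late, so that only the early one passed. *Smtn* then rose from early to late AVFs by 1.05 (SE 0.25, adjusted *p* = 0.00853), a call that was lost in 13 of 25 fits that each left out 1 library (early 1, 2, 3, 5, or 7, mid 9, 14, or 15, or any late library; adjusted *p* 0.0102 to 0.0283).

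*Lmod1* (chr1:135324807-135368065, plus strand) encodes leiomodin 1, which nucleates actin filaments. Contralateral veins ranged from 71.3 to 119.7 CPM (median 102), and early AVFs from 10.6 to 35.6 CPM (median 14.0). Mid AVFs held 15.3, 19.7, 22.7, 23.1, and 25.6 CPM, and late AVFs 24.3, 26.2, 27.1, 40.5, and 53.5 CPM. Every AVF library was below every contralateral vein, with late AVFs 23 and 24 the highest of them. Its log2 fold changes were −2.54 early (SE 0.29, adjusted *p* = 2.85e-07), −2.25 mid (SE 0.34, adjusted *p* = 5e-05), and −1.56 late (SE 0.33, adjusted *p* = 0.00219). It no longer passed in the late comparison when late AVF 17 (adjusted *p* = 0.0131) or late AVF 19 (adjusted *p* = 0.0105) was left out.

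*Synpo2* (chr3:123076519-123236149, minus strand), for synaptopodin 2 (myopodin), an actin-bundling protein of muscle, ranged from 209 to 725 CPM in contralateral veins (median 339) and from 18.6 to 68.1 CPM in early AVFs (median 36.5). Mid AVFs were at 51.6, 56.0, 71.0, 79.7, and 89.0 CPM, and late AVFs at 65.5, 67.1, 71.7, 89.7, and 167 CPM. No AVF reached the contralateral range, and late AVF 23 stood apart from the other late libraries. Against contralateral veins the log2 change was −3.35 (SE 0.31, adjusted *p* = 1.16e-08), −2.47 (SE 0.36, adjusted *p* = 2.72e-05), and −2.06 (SE 0.35, adjusted *p* = 0.000266) at the 3 times. The late-to-early difference of 1.29 (SE 0.31) had an adjusted *p* of 0.010, just outside the threshold, and passed when contralateral vein 28, 31, or 632 or early AVF 10 was left out (adjusted *p* 0.00247 to 0.00846).

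Among the motor genes, *Myh11* (chr16:14194535-14291372, minus strand), the smooth muscle myosin heavy chain, had the largest early change of the 10. Contralateral veins ranged from 1347 to 3782 CPM (median 1986) and early AVFs from 27.4 to 102 CPM (median 57.7). Mid AVFs held 123, 135, 161, 171, and 249 CPM, and late AVFs 279.9, 280.3, 283, 284, and 338 CPM. The 4 groups did not overlap at all: every mid library lay above every early one, and every late library above every mid one (3.31% and 1.06% of all genes did so), yet all stayed under every contralateral vein. Its mean in late AVFs was 12.4% of the contralateral mean, after 2.60% in early and 7.11% in mid AVFs. The mid change against contralateral veins was −3.81 (SE 0.33, adjusted *p* = 1.57e-08). From early AVFs *Myh11* was higher by 1.45 in mid AVFs (SE 0.27, adjusted *p* = 0.0131, not past the threshold) and rose by 2.25 in late AVFs (SE 0.27, adjusted *p* = 2.71e-05), whereas mid and late AVFs differed by 0.81 (adjusted *p* = 1).

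*Myl9* (chr2:156775420-156781658, plus strand), the regulatory myosin light chain of smooth muscle, which is also abundant in platelets, ranged from 3335 to 6684 CPM in contralateral veins (median 4714) and from 285 to 1414 CPM in early AVFs (median 487). Mid AVFs held 365, 386, 429.9, 512, and 537 CPM, and late AVFs 512, 595, 738, 782, and 828 CPM. Early AVF 5 was the highest AVF library, and it too lay under the contralateral range. The log2 change of *Myl9* was −2.93 (SE 0.28, adjusted *p* = 2.49e-08), −3.41 (SE 0.35, adjusted *p* = 2.08e-07), and −2.78 (SE 0.34, adjusted *p* = 3.51e-06) at the early, mid, and late times, and late and early AVFs overlapped (0.16, SE 0.29, adjusted *p* = 0.955). Summed platelet genes ranged from 268 to 595 CPM in contralateral veins and from 401 to 12762 CPM in early AVFs, the highest in early AVF 6, and their part in the *Myl9* values was not tested.

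*Des* (chr1:75360329-75368579, plus strand), for desmin, the intermediate filament protein of smooth, skeletal, and cardiac muscle, varied widely among libraries of one group. It ranged from 137 to 603 CPM in contralateral veins (median 233) and from 11.9 to 281 CPM in early AVFs (median 65.9). Mid AVFs held 77.1, 83.2, 207, 230, and 771 CPM, and late AVFs 43.7, 48.6, 76.9, 138, and 379 CPM. All groups overlapped, and mid AVF 12 was the highest library of all. Its changes against contralateral veins did not pass the test: −1.55 (SE 0.64, adjusted *p* = 0.0823) early, −0.16 (SE 0.71, adjusted *p* = 0.925) mid, and −1.16 (SE 0.74, adjusted *p* = 0.352) late.

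*Des* moved with transcripts of skeletal muscle, which lies beside these vessels. The summed level of 13 skeletal muscle genes was 28.0 to 109 CPM in contralateral veins, 12.3 to 6036 CPM in early, 835 to 9273 CPM in mid, and 11.6 to 11189 CPM in late AVFs, and none of the 13 was at 0 in every library of a group. Within the 8 early AVFs the log2 levels of *Des* and of this sum had a Pearson correlation of 0.99 (exact permutation *p* = 0.000124, adjusted over 20 relations 0.00248) and a Spearman correlation of 0.98 (exact permutation *p* = 0.000397, adjusted 0.00794). Without the 2 libraries farthest from the median of the sum, Pearson's *r* was 1.00 over 6 libraries. Within the 7 contralateral veins the Pearson correlation of *Des* was −0.08 (exact permutation *p* = 0.855, adjusted 0.968) and the Spearman correlation 0.07, over a narrow range of the sum. *Synpo2* (Pearson 0.75, Spearman 0.76) and *Myl9* (Pearson −0.75, Spearman −0.76) had the next strongest relations in early AVFs, and neither passed after adjustment (exact permutation *p* = 0.0363 and 0.0354, both adjusted 0.242). In the other genes the early Pearson correlation lay between −0.53 and 0.05. Correlations were computed only in groups of at least 6 libraries. In mid and in late AVFs, the library with the highest *Des* level (771 CPM in mid AVF 12, 379 CPM in late AVF 23) was also the one with the highest muscle sum (9273 and 11189 CPM).

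**Figure D2:**
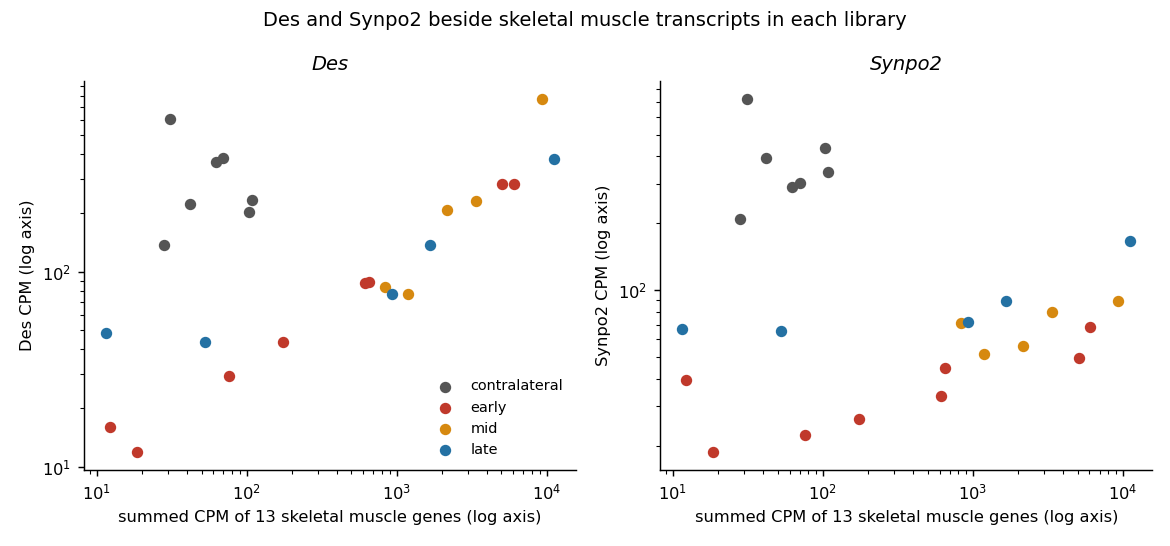
Level of *Des* (left) and *Synpo2* (right) in CPM (y axis, log axis) against the summed CPM of 13 skeletal muscle genes (x axis, log axis) in each of the 25 libraries, colored by group. The 8 early AVFs climb from 11.9 to 281 CPM of *Des* as the sum goes from 12.3 to 6036 CPM, while the 7 contralateral veins hold 137 to 603 CPM of *Des* at sums of at most 109 CPM.

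The 6 libraries early 1 and 10, mid 12, 14, and 15, and late 23 held over 2000 CPM of these skeletal muscle genes, and a fit without them was made after the data were seen. In that fit the early change of *Des* was −2.78 (SE 0.50, adjusted *p* = 0.000661). Early AVFs 1 and 10 also had the highest *Des* levels of their group (281 CPM each), so a larger fall followed from leaving them out and is no independent evidence. Its mid change, with 2 mid libraries left, was −1.87 (SE 0.76, adjusted *p* = 0.333), and its late change was −1.93 (SE 0.57, adjusted *p* = 0.0523). The same fit ended the mid calls of *Tagln* (−2.96) and *Lmod1* (−2.0), the late call of *Lmod1* (−1.71), and the late-to-early call of *Smtn* (1.12), and it left the direction of each unchanged.

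*Myocd* (chr11:65176561-65269989, minus strand), the coactivator itself, was counted at 0 to 38.4 CPM in contralateral veins (median 4.38) and at 3.11 to 17.8 CPM in early AVFs (median 4.92). The mid libraries held 7.52, 8.58, 8.67, 10.9, and 14.5 CPM, and the late ones 9.55, 11.2, 11.3, 11.5, and 11.6 CPM. The contralateral libraries spanned every AVF library, from vein 28 at 0 to vein 632 at 38.4 CPM, whereas the 5 late libraries lay close together. *Myocd* differed from contralateral veins by −0.44 (SE 0.75, adjusted *p* = 0.736), 0.12 (SE 0.85, adjusted *p* = 0.954), and 0.25 (SE 0.85, adjusted *p* = 0.893) at the 3 times. With standard errors this wide, a change of 2-fold in either direction was not detectable. Without contralateral vein 632 the early difference was 0.64.

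**Figure D3:**
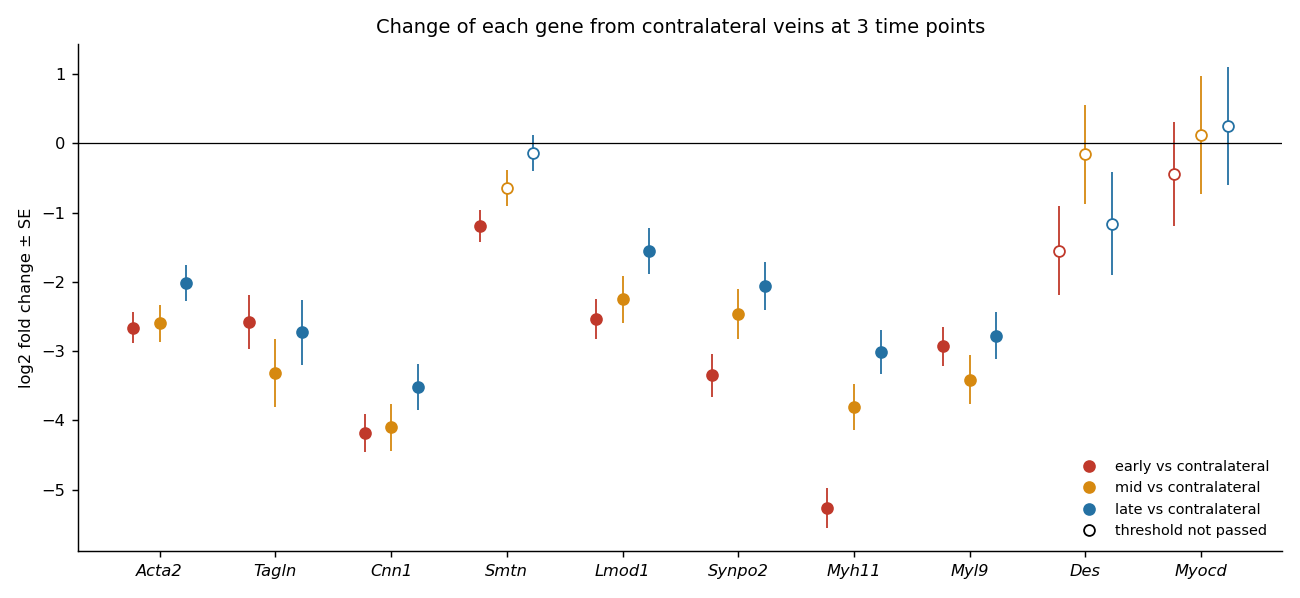
Log2 fold change of each of the 10 genes (x axis) against contralateral veins (y axis, with SE bars) in early, mid, and late AVFs, from 7, 8, 5, and 5 libraries. *Myh11* goes from −5.26 early to −3.01 late and *Smtn* from −1.19 to −0.14, while *Tagln* (−2.58 and −2.73) and *Myl9* (−2.93 and −2.78) stay at much the same value.

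Among AVFs of different ages, 2 of the 10 genes, *Myh11* and *Smtn*, rose from early to late (0.726% of all genes tested rose), and in both every late library lay above every early one (7.16% of all genes). The median log2 change of the 10 genes from early to late was 0.68, beside 0.01 over all genes. From early to mid AVFs none of the 10 passed (0.00789% of all genes rose and 0% fell), with 3 higher at an unadjusted *p* under 0.05 (*Myh11*, *Smtn*, and *Synpo2*), as were 3.43% of all genes. *Myh11* passed there with DESeq2, with edgeR's likelihood ratio test, and at an adjusted *p* under 0.05. In these settings 3.74%, 2.81%, and 3.8% of all genes passed in either direction. From mid to late AVFs none passed by edgeR or by DESeq2 (0% of all genes by edgeR), with 2 higher at an unadjusted *p* under 0.05 (*Acta2* and *Myh11*), as were 0.229% of all genes.

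To see whether the genes changed by like amounts, each was expressed as the log2 ratio of its count to that of *Myh11* in the same library, which does not depend on the scaling of libraries. *Myh11* had the largest early fall of the 10 genes and the largest rise from early to late, so the direction of these ratios restates its change, and they serve to show the sizes and the late values. In early AVFs the ratio of each of the 9 other genes was accordingly higher than in contralateral veins (exact permutation test, two-sided, Benjamini–Hochberg adjusted over 36 tests). *Acta2* stood at 1.91 ± 0.35 (SD, n = 7) in contralateral veins and at 4.52 ± 0.67 (SD, n = 8) in early AVFs, a 6.10-fold higher ratio (adjusted exact permutation *p* = 0.00112). The ratio of *Smtn* rose the most among the genes counted in every library, by 4.16 (17.9-fold, adjusted exact permutation *p* = 0.00112). That of *Cnn1* rose the least, by 1.08 (2.11-fold, adjusted exact permutation *p* = 0.00904), with overlapping ranges. The difference of 6.29 for *Myocd* rests in part on the contralateral vein with no *Myocd* count, where 0.5 was added. In late AVFs 6 of the 9 ratios remained higher than in contralateral veins. *Myh11* was still lower there (−3.01, beside a median of −0.09 over all genes tested), so a higher late ratio restates its change too. The share of all genes with a higher ratio was not computed, and these counts are not a result about the 9 genes. The 3 that did not pass were *Tagln* (0.22, adjusted exact permutation *p* = 0.393), *Cnn1* (−0.50, adjusted exact permutation *p* = 0.118), and *Myl9* (0.16, adjusted exact permutation *p* = 0.491). Mid AVFs had 7 of 9 higher, without *Cnn1* and *Myl9*. From early to late AVFs, as *Myh11* rose, 8 of 9 ratios fell, from −1.05 for *Synpo2* to −2.26 for *Tagln*, and *Des* did not pass (−1.64, adjusted exact permutation *p* = 0.113). The smallest *p* these tests can give is 0.000155 early against contralateral, 0.00126 mid or late against contralateral, and 0.000777 late against early.

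**Figure D4:**
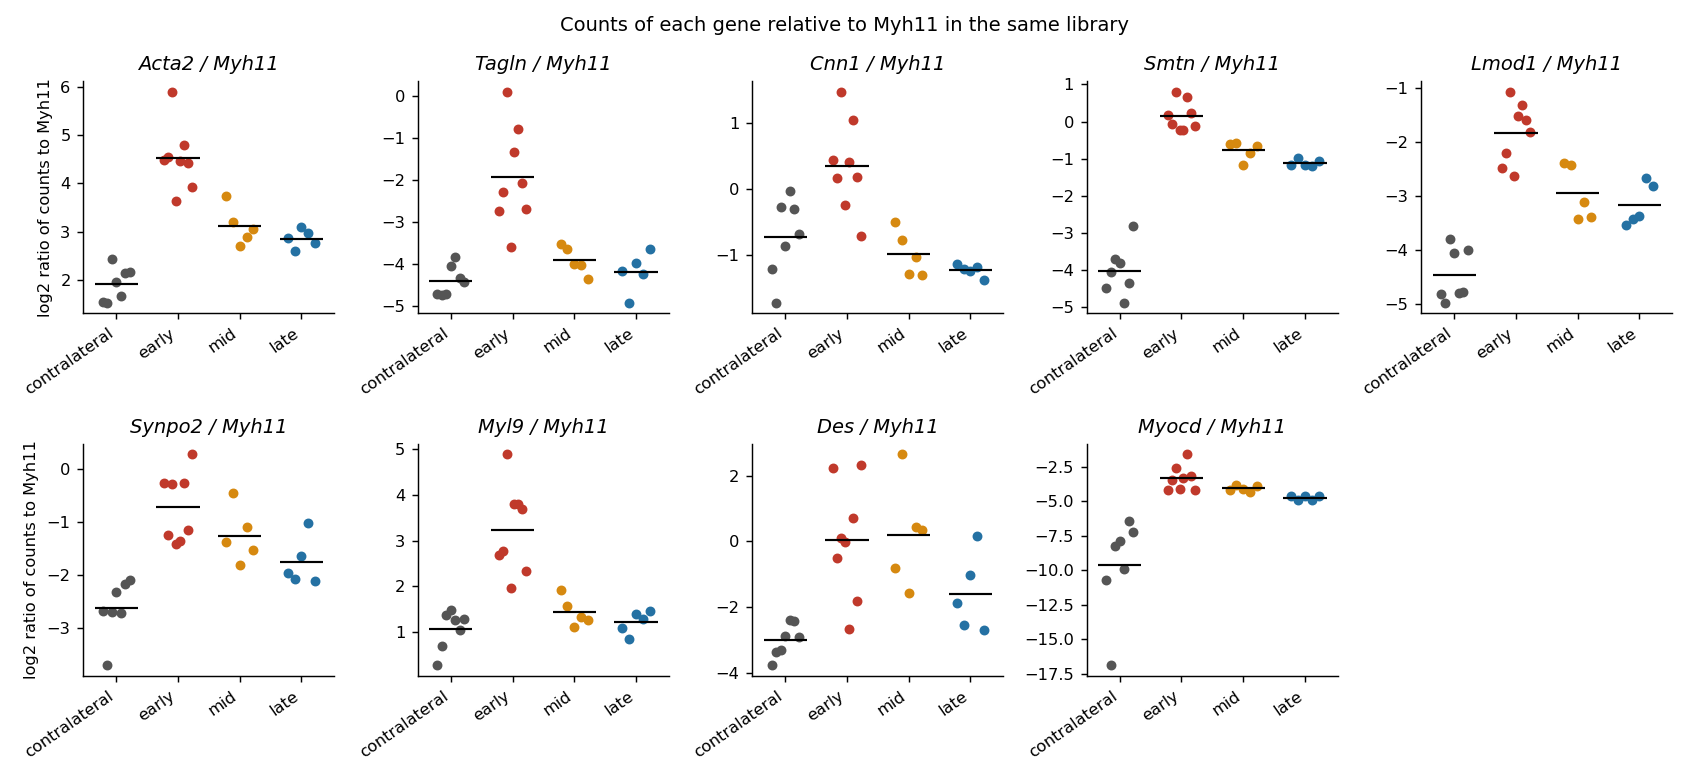
Log2 ratio of the count of each gene to that of *Myh11* in the same library (y axis) by group (x axis). Points are libraries and bars are group means. For *Acta2* the mean goes from 1.91 in contralateral veins to 4.52 in early and 2.85 in late AVFs, and for *Smtn* from −4.01 to 0.16 and −1.11.

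*Myh11* itself was also set against 12 genes of mural cell identity that encode no contractile protein (*Notch3*, *Rgs5*, *Mcam*, and others). The log2 ratio of *Myh11* to the mean of these genes was 6.83 in contralateral veins and 2.17 in early AVFs, a difference of −4.66 (exact permutation *p* = 0.000155), with no overlap. It differed by −3.88 mid (exact permutation *p* = 0.00126) and −3.42 late (exact permutation *p* = 0.00253). Late and early AVFs differed by 1.24, with overlap (exact permutation *p* = 0.0420). When these genes replaced *Myh11* as the denominator, 18 of the 36 comparisons passed, and in all 18 the ratio was lower in AVFs than in contralateral veins. They were those of *Acta2*, *Tagln*, *Cnn1*, *Lmod1*, *Synpo2*, and *Myl9* at each of the 3 times. *Acta2* relative to the mural genes, for example, differed by −2.05 in early AVFs (adjusted exact permutation *p* = 0.0199), and none of the 9 ratios passed between late and early AVFs. The mural genes were averaged as log2 counts, so a count of 0 lowers this denominator. *Itga7*, *Cox4i2*, *Ndufa4l2*, and *Map3k7cl* were at 0 in contralateral vein 28, and *Cox4i2* in veins 31 and 34. Early AVF 6 had 0 for *Cox4i2* and *Map3k7cl*. The differences from contralateral veins thus rest in part on these counts. For *Myh11* the late difference (−3.42) was larger than its fitted change (−3.01), although the mean mural sum was lower late (795 against 1065 CPM).

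Other genes of the contractile system were taken from lists. Of 20 further genes of the contractile machinery, 15 fell in early AVFs and 13 in late AVFs, with medians of −2.18 and −1.58. Among all genes tested, 6.45% fell early and 2.85% late, shares that also stand beside the falls of the lists below. The late count was 7 without the 6 libraries rich in skeletal muscle transcripts and 5 in female mice alone, where the early count was 9. For these counts in that order, 1.86%, 1.38%, and 2.61% of the genes tested passed in either direction. The largest early falls were *Actg2*, the enteric smooth muscle actin (−3.74, SE 0.28, adjusted *p* = 5.69e-10), and *Mylk*, the myosin light chain kinase (−3.73, SE 0.20, adjusted *p* = 1.78e-12). From early to late AVFs, *Ppp1r12b*, a myosin phosphatase subunit (1.34), and *Tns1*, for tensin 1 (1.17), rose (0.726% of all genes rose). Without late AVF 16 or 23, 1 gene of this list passed from early to late, and without late AVF 17, 19, or 24, or in female mice alone, 0 passed. Of 16 tested genes that control contraction, 7 fell early and 2 late, with medians of −1.61 and −0.48. They were led by *Gucy1a1*, the soluble guanylate cyclase subunit (−3.52, SE 0.34), and *Mrvi1*, a substrate of cGMP-dependent kinase (−3.12, SE 0.32), and both rose again from early to late (1.88 and 1.42), as did *Itga8*, an integrin subunit (1.84). Of 10 tested regulators of SRF-dependent transcription, 3 fell early: *Mkl2*, a coactivator related to myocardin (−1.95, SE 0.32), *Gata6*, a transcription factor of vascular smooth muscle (−1.55, SE 0.32), and *Klf4*, a repressor of these genes (−1.22, SE 0.31). Of 12 genes of non-muscle actomyosin none fell and 3 rose (6.17% of all genes rose in early AVFs): *Tagln2*, a paralog of *Tagln* (1.60, SE 0.17), *Myh9*, the non-muscle myosin heavy chain (1.32, SE 0.25), and *Actg1*, for cytoplasmic γ-actin (1.11, SE 0.15). Among 10 genes of the myofibroblast matrix 8 rose early, led by *Adam12* (5.31, SE 0.94) and *Cthrc1* (4.59, SE 0.84), and 8 rose late (2.49% of all genes). The mural identity list had 4 of 11 tested genes lower early, led by *Pcp4l1* (−4.06) and *Nrip2* (−2.62), and *Notch3*, the mural cell Notch receptor, rose from early to late by 2.15 (SE 0.36, adjusted *p* = 0.00149).

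Markers of other cells moved at the same time. The summed level of 10 leukocyte genes was 1805 to 7017 CPM in contralateral veins and 12532 to 37187 CPM in early AVFs, with 8 of 10 higher (6.17% of all genes), and 4 of 10 fell again from early to late AVFs (2.28% of all genes). Endothelial genes summed to 2310.5 to 4905 CPM in contralateral veins and 386 to 766 CPM in early AVFs, with 7 of 10 lower (6.45% of all genes). Fibroblast genes overlapped (17681 to 45075 CPM and 3737 to 40745 CPM), with 4 of 10 lower (6.45% of all genes). None of the 10 genes in any of these 3 lists was at 0 in all libraries of a group, and the part of these cells in the levels of the contractile genes was not tested.

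The genes whose pattern over the 25 libraries was most like that of *Acta2* were *Lmod1* (root mean square difference of centered log2 CPM 0.379), *Cdc42ep3* (0.380), *Tinagl1* (0.414), *Dstn* (0.434), and *Mustn1* (0.444). Those most like *Myh11* were *Vwf* (0.570), *Gsn* (0.703), *Fmo2* (0.756), *Pappa2* (0.768), and *Cnn1* (0.783). *Acta2* and *Myh11* differed from each other by 1.09, which placed *Myh11* at rank 1200 among the tested genes for *Acta2*, and *Acta2* at rank 52 for *Myh11*. The measure is not scaled for the size of a gene's changes, and the spread of centered log2 CPM was 1.18 for *Acta2* and 2.10 for *Myh11*. A distant rank therefore does not mean that genes did not vary together. These are descriptions over libraries that include the 4 groups.

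Sex was tested as a term and as an interaction with the group in the bulk data. No interaction passed for any of the 10 genes. The interaction with the lowest *p* in early AVFs was that of *Myocd* (male minus female difference of −3.56, SE 1.44, adjusted *p* = 0.432). With only 2 male contralateral veins, moderate differences were not detectable. In female mice alone (5, 3, 3, and 3 libraries), 6, 4, and 4 of the 10 genes fell at the early, mid, and late times, where 2.61%, 1.53%, and 1.38% of the 12537 genes tested in that fit passed in either direction.

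Single-cell sequencing showed which cells held these transcripts, with 1 library per condition, no test, and intervals that cover counting error only. After filtering, 6319 contralateral, 4753 early, and 5821 late cells remained, with median UMI counts of 2751, 8951, and 15425. Clusters were made without the 10 genes and without the marker lists. A cluster of 899 cells was called SMC-like because 9 of 12 mural identity genes were at least 2-fold higher there, and its leading genes were *Acta2*, *Tagln*, *Mgp*, *Myh11*, and *Itga8*. It held 45 contralateral cells (0.712%), 280 early cells (5.89%), and 574 late cells (9.86%), with median UMI counts of 5205, 19404.5, and 23807.5. Of the mural identity genes themselves, *Notch3* stood at 704, 25.2, and 20.7 CPM in these cells at the 3 conditions and *Rgs5* at 2375, 206, and 433 CPM. Each of the 12 was lower in these cells in both AVF libraries than in the contralateral one, among them *Nrip2* (249, 4.30, and 1.10 CPM). *Postn* was higher there (394, 1153, and 786 CPM). Whether the class holds like cells in the 3 libraries was not tested. The contralateral values below rest on these 45 cells. They did not hold together in every setting: when cells were clustered again without called doublets, 0 of them contralateral, fewer than 20 contralateral cells were SMC-like. Summed over each whole library, *Acta2* was at 182, 897, and 1574 CPM and *Myh11* at 72.6, 171, and 330 CPM, lowest in the contralateral library, whereas in bulk tissue the contralateral veins were highest. The share of SMC-like cells was likewise lowest there, and its part in these sums was not tested.

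Within SMC-like cells, the 10 genes stood apart from the contralateral level by unlike amounts. These are levels within 1 class of cells, from 1 pool per condition, with early and late pools taken at later mean days. They do not divide the bulk changes between cell number and RNA per cell. *Acta2* was at 12138 CPM (95% interval 11754 to 12533) in the contralateral, 8257 (8178 to 8336) in the early, and 11441 (11383 to 11500.1) in the late library, which is 0.680 and 0.943 of the contralateral level. *Tagln* stood at 9108, 6473, and 7974 CPM. It was thus the gene with the second highest UMI count in these cells, whereas its bulk count was among the lower ones. *Cnn1* (733, 625, and 738 CPM) and *Lmod1* (584, 671, and 576 CPM) had early and late intervals that overlapped the contralateral ones. *Smtn* was higher in both AVF libraries (320, 410, and 472 CPM), and *Synpo2* (507, 296, and 284 CPM) and *Myl9* (3269, 1999, and 2097 CPM) were lower. *Myocd* was at 116 CPM from 36 UMIs in the contralateral library and at 105 and 170 CPM in the early and late libraries.

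*Myh11* and *Des* were the members furthest from the contralateral level in these cells. *Myh11* was at 4983 CPM (4738 to 5238) in the contralateral, 1781 (1745 to 1818) in the early, and 2415 (2388 to 2442) in the late library, 0.357 and 0.485 of the contralateral value. *Des* was at 749 CPM (656 to 852), 51.8 CPM (45.8 to 58.4), and 24.5 CPM (21.9 to 27.4), or 14.4-fold lower early (interval 12.1 to 17.3) and 30.5-fold lower late. Of SMC-like cells with an *Acta2* UMI, 61.0% also had a *Des* UMI in the contralateral library (25 of 41), 16.0% in the early library (41 of 256), and 12.2% in the late one (68 of 557), although the late cells were the deepest. When each cell was thinned to 1000 UMIs (leaving out 3, 14, and 37 shallower cells), *Des* was found in 33.3%, 5.64%, and 2.79% of SMC-like cells, beside 0.176%, 0%, and 0.178% of T cell-like cells. *Myh11* was found in 85.7%, 63.9%, and 71.9% of the thinned SMC-like cells. At least 5 of the 10 genes were detected in 80.0%, 84.6%, and 88.3% of SMC-like cells before thinning. These values moved with the cell filter: with up to 20% mitochondrial counts and no upper limit on genes, *Myh11* in early SMC-like cells was 0.213 of the contralateral level.

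Fibroblast-like cells held far lower levels, and *Acta2*, *Tagln*, and *Des* were higher there in the early library. *Acta2* was at 52.9 CPM (49.0 to 57.0) in contralateral, 398 CPM (387 to 410) in early, and 84.6 CPM (82.1 to 87.2) in late fibroblast-like cells, 7.54-fold higher early and 1.60-fold higher late. *Tagln* went from 43.4 to 284 and 53.0 CPM, and *Des* from 1.99 to 13.6 and 2.49 CPM. *Myh11* was at 20.4, 5.97, and 15.8 CPM. Its late level was above the contralateral one under 2 other settings, 19.7 against 10.5 CPM with the wider cell filter and 14.7 against 10.9 CPM with the list genes among the clustering genes. The class held 1873, 493, and 2013 cells, which came mostly from cluster 2 in the contralateral library (1660 cells), from cluster 1 in the early library (474 cells), and from clusters 1 and 10 in the late library (1442 and 539 cells). A few cells set the contralateral baseline: the 63 contralateral cells of cluster 1, 12 of them with an *Acta2* UMI, were at 557 CPM and gave most of the 691 *Acta2* UMIs, while clusters 2 and 10 were at 25.5 and 14.1 CPM. For *Myh11*, 4 cells of cluster 1 gave 123 of 266 UMIs. Within cluster 1 alone, *Acta2* was at 557, 412, and 92.2 CPM and *Tagln* at 487, 294, and 61.3 CPM in the contralateral, early, and late libraries. *Des* was highest in the early library there too (8.52, 14.1, and 2.86 CPM). The changes of the class thus also depend on its mix of clusters. The early ratio of *Acta2* was larger under other settings, 29.1 with the wider cell filter and 16.0 when the list genes were allowed among the clustering genes.

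**Figure D5:**
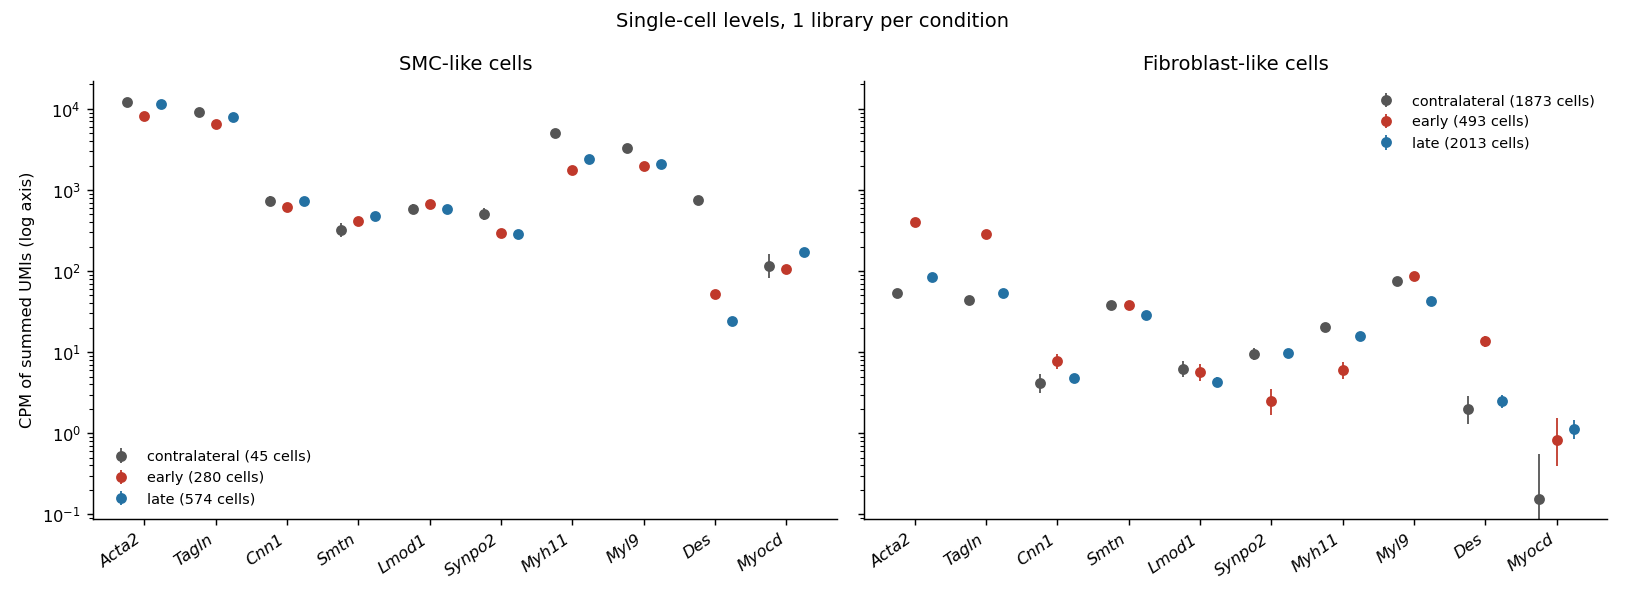
Level of each of the 10 genes in SMC-like and fibroblast-like cells (y axis, CPM of summed UMIs, log axis) in the contralateral, early, and late libraries, with exact Poisson 95% intervals. In SMC-like cells *Des* goes from 749 to 51.8 and 24.5 CPM, and in fibroblast-like cells *Acta2* goes from 52.9 to 398 and 84.6 CPM.

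Free RNA gives UMIs in cells that do not make a transcript, so the same values were read in T cell-like cells. There *Acta2* was at 19.4, 61.0, and 150 CPM in the 3 libraries (median UMI counts 3502, 5578, and 6424). After thinning, an *Acta2* UMI was found in 1.58%, 6.21%, and 15.3% of T cell-like cells and in 2.78%, 22.1%, and 8.18% of fibroblast-like cells (unthinned 7.76%, 34.5%, and 65.8%, and 9.61%, 73.4%, and 78.2%). The background was not alike in all cells of the early library, where *Acta2* was at 168 CPM in neutrophil-like, 173 CPM in EC-like, 261 CPM in platelet-like, and 386 CPM in erythroid-like cells (median UMI count 1394), and at 54.1 CPM in mono/macro-like cells. The late fibroblast-like share was below the T cell-like share. Late fibroblast-like cells were also deeper (median UMI count 24979, beside 6424), and a given amount of free RNA is a smaller part of a deep cell. These shares therefore cannot tell whether late fibroblast-like *Acta2* was background, which was not tested. Within a library, a single source keeps its transcripts in 1 ratio in every cell type. In the early library *Acta2* had 4.64 UMIs per *Myh11* UMI in SMC-like cells (4.53 to 4.74), 3.95 in T cell-like cells (2.36 to 6.92), and 66.8 in fibroblast-like cells (52.9 to 85.5). In the late library these ratios were 4.74 (4.68 to 4.80), 4.15 (3.47 to 4.99), and 5.35 (4.96 to 5.78), and in the contralateral library 2.44 (2.30 to 2.59), 1.84 (1.17 to 2.95), and 2.60 (2.25 to 3.00). A ratio apart from that of SMC-like cells was not particular to fibroblast-like cells in the early library: it was 6.43 (5.62 to 7.37) in mono/macro-like, 13.7 (9.91 to 19.4) in neutrophil-like, and 15.8 in erythroid-like cells. *Des* had 2.28 UMIs per *Myh11* UMI (1.72 to 3.05) in early fibroblast-like cells and 5.23 (3.54 to 7.94) in early erythroid-like cells, beside 0.0291 in SMC-like cells (0.0257 to 0.0329).

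The share of all UMIs of a gene that lay in SMC-like cells was 70.6%, 84.4%, and 94.2% for *Acta2* and 72.8%, 95.2%, and 94.7% for *Myh11* in the contralateral, early, and late libraries. It was lowest for *Smtn* in the contralateral library (7.48%, then 73.9% and 76.9%), where 34.6% of *Smtn* UMIs lay in Schwann-like cells at 336 CPM (306 to 368). For *Myl9* the share was 28.3%, 80.0%, and 89.6%, and 28.0% of its contralateral UMIs lay in platelet-like cells, at 1789 CPM (1680.4 to 1904).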

How the data were processed

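Bulk RNA was sequenced per vessel from poly(A)-selected, ultra-low-input libraries. The authors deposited raw counts of reads on each gene for bulk vessels and UMI counts of each gene and barcode for single cells, both unnormalized. The submitters' processing notes name STAR, Cell Ranger, mm10, and GRCm38. The counting tool and its handling of strand and overlaps were not stated. Groups, days, and sexes came from the labels. Where nothing says that libraries came from separate mice, *p* values measure the spread between these libraries. No 2 libraries of a group were identical, and each pair differed by more than sampling noise (lowest reduced chi-square 67.4).

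The 10 genes and the lists were chosen with earlier results of these data known. All 10 are reported. From each list, the 2 called genes with the largest log2 fold change in each direction are named (early against contralateral, late against early). *Klf4*, *Actg1*, and *Mrvi1* in the late-to-early comparison were added after their values were seen, as were *Notch3*, *Rgs5*, and *Mcam*. The 12673 genes whose DESeq2-normalized counts averaged 100 or more were fitted over all 25 libraries with edgeR 4.0.16 in R 4.3.3 (TMM, quasi-likelihood F test), called at an adjusted *p* under 0.01 and a log2 fold change of at least 1. Tested on simulated data for early against contralateral (12673 genes), the fit recovered 0 of 67 genes changed 2-fold, 25 of 67 changed 4-fold, and 40 of 66 changed 8-fold, and called 0 of 12473 unchanged genes. CPM used TMM-scaled library sizes. Correlations used log2(CPM + 2), and ratios added 0.5 to each count.

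Of 26438 barcodes, 16893 had 200 to 6000 genes and no more than 10% mitochondrial counts and were kept, more than the number of cells the study plots. The 2000 most variable genes, without the 10 genes and the lists, gave 12 components and a graph of 20 neighbors, clustered with leidenalg 0.10.2 at resolution 0.5 under Python 3.11.15. Clusters were named from fixed markers by a rule that had been revised on these data. Doublets were kept, and Scrublet (scanpy 1.11.5) called 0, 2, and 120 of the kept barcodes, too few in the contralateral and early libraries to have worked. The libraries shared 5 to 6 kept barcodes per pair. Intervals are exact (Poisson or binomial, 95%) and cover counting error only. Alternatives changed the scaling, tool, low-count filter, threshold, sex term, libraries, denominator, cell filter, clustering, and number of mismatches. Human data were not analysed here.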

Additional observations from a re-analysis of the deposited data

Results flagged for a closer look

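In 8 of 40 sets of values (each gene in each group), the highest or lowest library was separated from the others by a gap beyond Dixon's 95% limit. Chance gives such a gap in about 1 of 20 independent sets of normally distributed values. The gaps here were measured in CPM, and the 40 sets share libraries, so the count cannot be judged against that rate. Late AVF 23 was the highest of its group for *Des* (379 CPM), *Synpo2* (167 CPM), and *Myh11* (338 CPM), and it had the highest skeletal muscle sum of all libraries (11189 CPM). Mid AVF 12 was the highest of its group for *Des* (771 CPM) and had the highest skeletal muscle sum among mid AVFs (9273 CPM). Early AVF 5 was the highest of its group for *Lmod1* (35.6 CPM) and *Myl9* (1414 CPM), and it also had the highest leukocyte sum (37187 CPM). Its platelet sum (9463 CPM) was below that of early AVF 6 alone (12762 CPM). For *Myocd*, contralateral vein 632 stood high (38.4 CPM) and late AVF 17 stood low (9.55 CPM) in their groups. The part of the muscle, leukocyte, and platelet transcripts in these values was not tested.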

How the results depend on the processing

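Over 60 fold changes of the 10 genes and all alternatives, 1974 of 2040 refitted values kept their direction and their side of the threshold. Members called in the early comparison stayed at 8 in every fit that left out 1 library, with 7 in mid and 6 to 7 in late AVFs, 0 to 1 from early to mid, 1 to 3 from early to late, 0 from mid to late, and 29 to 31 ratios to *Myh11*. In female mice alone 4 passed in mid, 4 in late, and 0 from early to late, and 4 differences changed sign: *Myocd* early (1.54), *Smtn* late (0.09), *Des* from early to late (−0.56), and *Myocd* from mid to late (−0.07). From early to mid, 1 gene (*Myh11*) passed with DESeq2 1.42.0, with the likelihood ratio test, or at an adjusted *p* under 0.05 (3.74%, 2.81%, and 3.8% of all genes). From early to late, 4 passed with DESeq2, 1 without a filter on low counts, and 1 without the libraries rich in skeletal muscle transcripts. In these fits 5.94%, 0.55%, and 1.52% of the genes tested passed in either direction. With mural genes as the denominator 18 ratios passed, all lower in AVFs than in contralateral veins. These rest in part on mural genes with no count in some contralateral veins. With up to 1 mismatch 2 promoters held a CArG box. Leaving out 1 library also turned the sign of changes near 0, over ranges of −0.75 to 0.64 (*Myocd* early), −0.14 to 1.19 (*Myocd* mid), −1.10 to 0.09 (*Des* mid), −0.32 to 0.02 (*Smtn* late), −0.05 to 0.20 (*Acta2*, early to mid), 0.00 to 0.25 (*Cnn1*, early to mid), −0.30 to 0.12 (*Tagln*, early to late), and −0.44 to 0.78 (*Des*, early to late). In contralateral, early, and late single cells, the wider cell filter gave *Myh11* at 4667, 994, and 2073 CPM (SMC-like) and *Acta2* at 27.2, 791, and 131 CPM (fibroblast-like). Without barcodes called by Scrublet, *Myh11* was at 1872 and 2464 CPM in early and late SMC-like cells (237 and 493 cells) and *Acta2* at 80.4 CPM in late fibroblast-like cells. Scrublet called 0 contralateral barcodes, yet after the new clustering fewer than 20 contralateral cells were SMC-like, too few for a value. No contralateral baseline for SMC-like cells was thus left in this setting. With list genes among the clustering genes, *Acta2* was at 23.9, 382, and 80.0 CPM in fibroblast-like cells and *Myh11* at 4477 CPM in contralateral SMC-like cells. The causes of these shifts were not tested. No paired analysis was possible because the bulk groups share no replicate numbers and each single-cell condition has 1 library. Low *Myocd* counts and the 45 contralateral SMC-like cells limit what depth can show.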
